A study of Mus musculus with 6 samples.

Results

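The collagen genes of the mouse cardiac ventricle were compared between miR-499 transgenic mice and wild-type mice. They were taken as every gene whose symbol on the array platform starts with Col and goes on with a number, an a and a number. The array measured 44 such genes among 19938 genes that had a probe set, the group of probes that reads 1 transcript, with exactly 1 gene symbol. Where a gene had several of these, the one with the highest mean log2 value over the 6 mice was used. The 44 genes fell into 11 fibrillar collagens, 6 basement membrane collagens (the type IV chains) and 27 other collagens.

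RNA came from the ventricles of 3 transgenic mice (TG) and 3 wild-type littermates (WT) at postnatal day 17, with 1 Affymetrix mouse gene array per mouse. The genotype and tissue of each mouse come from the sample labels, and the line, age and littermate status come from the study's methods. The transgenic mice were of line 17 (TG-17), in which a fragment around the mouse pre-miR-499 was driven by the promoter of Myh6, the alpha-myosin heavy chain, which is active in heart muscle cells. The construct was injected into FVB/NCrl embryos, and the mice on the arrays represent 1 transgenic line. In this design any difference in a collagen transcript is one in whole ventricle, where collagen is made mostly by cells that the promoter does not target.

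Collagens are matrix proteins of 3 chains wound into a triple helix. Fibrillar collagens assemble into the stress-bearing fibres of the heart's interstitium, mainly as types I and III made by cardiac fibroblasts, and their accumulation is the substance of cardiac fibrosis. Type IV collagens form a flat network in the basement membrane around each heart muscle cell and capillary, and the other types decorate fibrils, anchor membranes or span the plasma membrane.

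The targeted gene followed the labels. Mir499 read 5.50 ± 0.17 on the log2 scale in the WT mice and 9.17 ± 0.26 in the TG mice (mean ± SD over the 3 mice of a group), a fold of 12.7 (adjusted p = 0.00772 by limma). The 8 heart muscle markers, Myh6, Tnnt2 and Tnni3 among them, had mean log2 values of 12.8 to 14.3 per probe set, against array medians of 6.89 to 6.95. Any pair of arrays correlated with Pearson's r of 0.990 to 0.994 over the probe sets, which do not count as independent replicates, and no array stood apart.

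No collagen gene passed the test of TG against WT ventricles. Each probe set was tested with limma, a linear model whose spread is moderated over all 35556 probe sets, and a gene was called at a log odds B above 0. At that cut-off 0 of the 44 collagens were called, the highest B being -1.32, while 68 of all genes (0.341%) were called. At an adjusted p under 0.05 the count was also 0, with 2 of all genes (0.0100%) called and a lowest collagen adjusted p of 0.224 by limma. At an unadjusted p under 0.05, 1 collagen was higher in TG (2.27% of them, against 6.65% of all genes) and 6 were lower (13.6%, against 8.76%). In either direction that made 7 of 44 (15.9%), close to the 15.4% of all genes. A count near the background is no result about these genes. The split of these 7 rests on how the arrays are scaled, since centring each array on its median gave 3 higher and 3 lower.

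The intervals show how large a difference in array signal the data allow. Of the 44 collagens, 36 had a 95% interval of the fold that lay within 1.25-fold both ways, among them 11 of 11 fibrillar, 6 of 6 type IV and 19 of 27 other genes. Across the alternative settings these counts were 9 to 11, 5 to 6 and 14 to 21. Over all 44, the lowest bound was 0.708-fold and the highest 1.23-fold. Of the 44, 24 had a mean log2 value below 8, against array medians of 6.89 to 6.95. Such genes may be barely expressed, and how far their array signal follows the transcript was not tested. For them a narrow interval does not bound a change of the transcript. In whole ventricle, fewer cells of a type and less RNA per cell cannot be told apart.

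**Figure D1:**
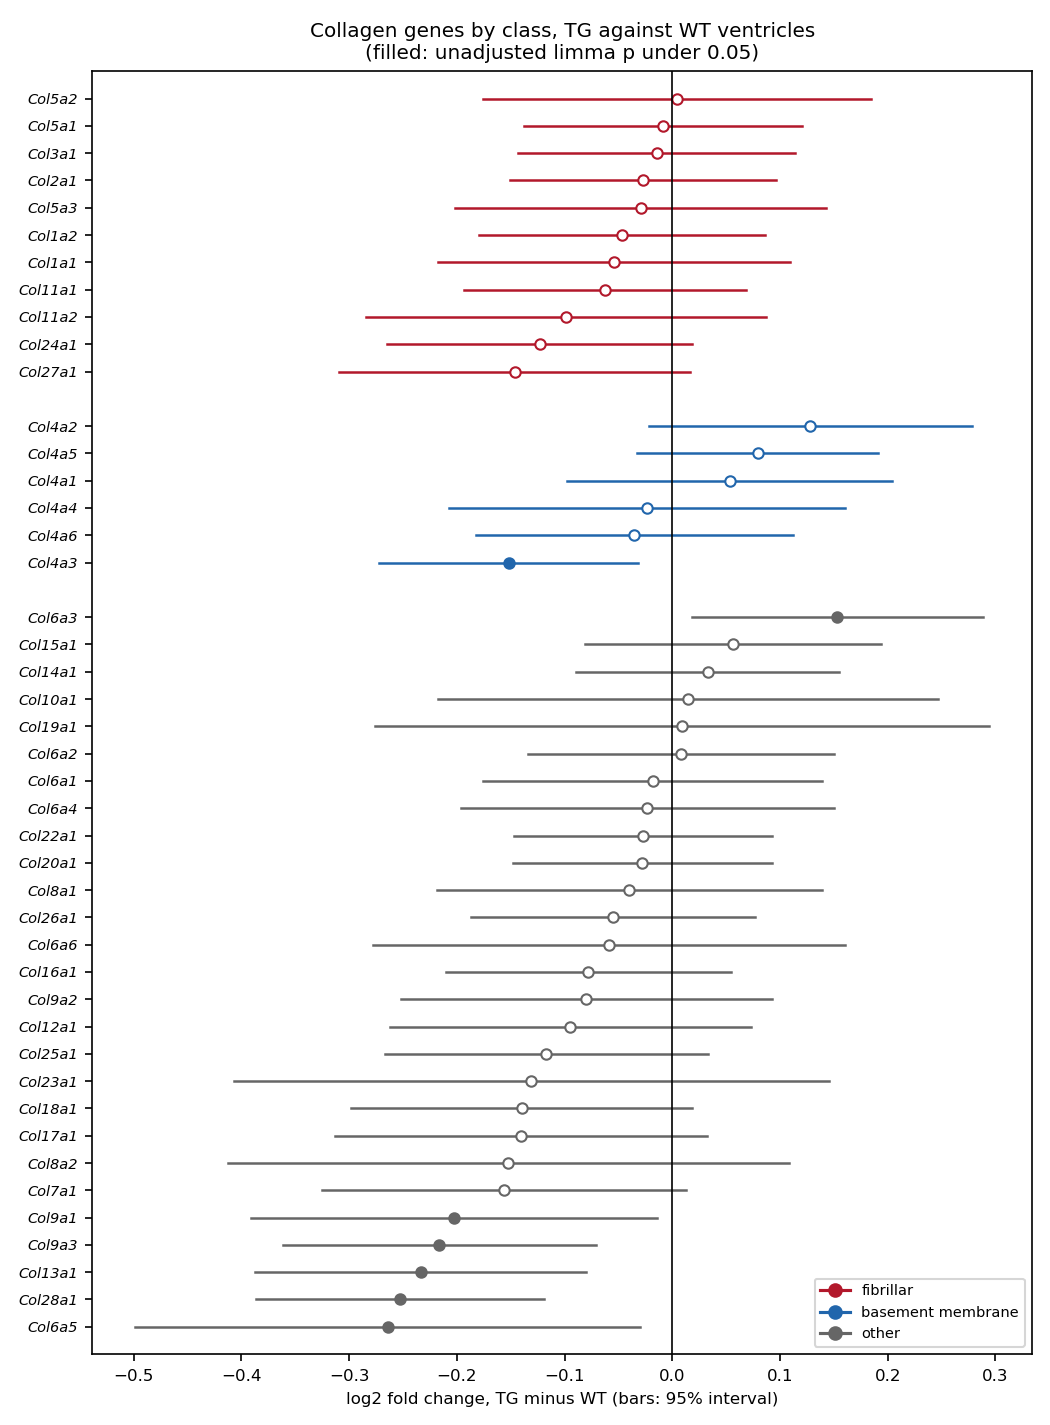
Log2 fold change (TG minus WT) of each of the 44 collagen genes, grouped by class, with its 95% interval from the limma fit; filled points have an unadjusted p under 0.05. The fibrillar values span -0.15 to 0.0045, the type IV values -0.15 to 0.13 and the others -0.26 to 0.15, and 7 points are filled.

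The fibrillar collagens had folds close to 1. Col1a1, the alpha1 chain of type I collagen, had log2 values of 11.83, 11.84 and 11.98 in the WT mice and 11.89, 11.85 and 11.76 in the TG mice. The groups overlapped, with the highest value in a WT mouse and the lowest in a TG mouse. Its log2 fold change was -0.054 with a standard error (SE) of 0.067, an interval of 0.860- to 1.08-fold.

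Col1a2, which supplies the other chain of type I collagen, measured 12.012, 12.008 and 12.086 in WT and 12.034, 11.999 and 11.933 in TG, a log2 fold change of -0.047 (SE 0.055). Col3a1, the only chain of type III collagen, measured 12.22, 12.23 and 12.30 in WT and 12.27, 12.26 and 12.18 in TG, a log2 fold change of -0.015 (SE 0.053). In these genes of the main heart fibrils the same WT mouse (replicate 3) was highest and the same TG mouse (replicate 3) lowest, and in each the groups overlapped. The intervals were 0.883- to 1.06-fold for Col1a2 and 0.905- to 1.08-fold for Col3a1.

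Type V collagen sits inside type I fibrils and limits their width. Its chain Col5a1 measured 9.23, 9.26 and 9.34 in WT and 9.30, 9.27 and 9.24 in TG, and Col5a2 measured 8.94, 9.03 and 9.12 in WT and 9.13, 9.01 and 8.96 in TG. Their log2 fold changes were -0.0088 (SE 0.053) and 0.0045 (SE 0.074). The groups of both genes overlapped. In the values as deposited Col5a2 was the only fibrillar gene with a higher mean in TG, and it lies next to Col3a1 in the genome. The third type V chain, Col5a3, had a log2 fold change of -0.030 (SE 0.071).

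The other fibrillar genes are best known from cartilage, as types II and XI, or are the later described types XXIV and XXVII. Col2a1 had a log2 fold change of -0.027 (SE 0.051), Col11a1 one of -0.063 (SE 0.054) and Col11a2 one of -0.099 (SE 0.077). The lowest values of the class were those of Col24a1, at -0.12 (SE 0.058), and Col27a1, at -0.15 (SE 0.067). Col27a1 measured 7.98, 8.02 and 7.95 in WT and 7.94, 7.75 and 7.81 in TG, so that its groups met without overlapping, and its adjusted p by limma was 0.358. Over the class, 0 of 11 genes reached an unadjusted p under 0.05, 10 means were lower in TG with a median of -0.047, and with centred arrays 5 were lower with a median of 0.0044. The median of all genes was -0.018 as deposited and 0.033 with centred arrays.

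Transcription of several collagen genes is known to use a CCAAT box, the sequence bound by the factor NF-Y, in the promoter. Promoter windows of 250 bases before to 50 bases after the start, from RefSeq on GRCm38.p6, were found for 35 of the 44 collagen genes. A CCAAT, searched on both strands, was present in 13 of the 38 collagen windows (34.2%), against 12289 of 32851 windows in all (37.4%). The collagen genes with a match were 3 of 8 fibrillar, 3 of 5 type IV and 7 of 22 other genes that had a window. The match that lies before the start is shown for Col1a2, as a gene of the main heart fibrils, at chr6:4505497-4505526 on the plus strand. It is shown also for Col4a1 and Col4a2, which are read in opposite directions from overlapping starts and whose values are compared with each other, at chr8:11312954-11312983 on the minus strand and chr8:11312761-11312790 on the plus strand. Each run of 30 bases is written 5′ to 3′ along the gene's own strand, with CCAAT or its reverse complement in capitals.
Col1a2: aaaagaatggaaCCAATttaagaagccccg
Col4a1: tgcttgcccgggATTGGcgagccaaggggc
Col4a2: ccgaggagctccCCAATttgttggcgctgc
Counted from the start of the gene, the capitals begin at -109 in Col1a2, -145 in Col4a1 and -32 in Col4a2. The annotated starts of Col4a1 and Col4a2 overlap by 22 bases, at chr8:11312805-11312826, which are shown along the plus strand because they open both genes.
Start region: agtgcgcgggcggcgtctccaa
The windows of these genes share 78 bases. A match of letters is a description of the sequence and not a site that was shown to be bound.

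The type IV collagens held the only class with as many higher as lower means, 3 each, and no member was called. The chains pair as neighbours in the genome, Col4a1 with Col4a2, Col4a3 with Col4a4 and Col4a5 with Col4a6. Col4a1 and Col4a2 make the common network of the heart's basement membranes. Col4a1 measured 10.55, 10.63 and 10.67 in WT and 10.75, 10.62 and 10.64 in TG, with a log2 fold change of 0.053 (SE 0.062) and overlapping groups. Col4a2 measured 10.72, 10.84 and 10.82 in WT and 10.99, 10.88 and 10.88 in TG. All TG values of Col4a2 were above all WT values, and the TG replicate 1 was highest, as it was for Col4a1. Its log2 fold change was 0.13 (SE 0.062), the largest of the class, with an interval of 0.985- to 1.21-fold and an adjusted p of 0.379 by limma.

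The other pairs follow, and differences between neighbours were not tested in any pair. Col4a3 and Col4a4, with Col4a5, form the network of the kidney glomerulus, whose defects cause Alport syndrome. Col4a3 measured 7.43, 7.51 and 7.45 in WT and 7.31, 7.30 and 7.32 in TG. Its groups did not overlap, and the TG mice lay within a narrower range than the WT mice. The log2 fold change was -0.15 (SE 0.049), with an adjusted p of 0.268 by limma and an unadjusted p under 0.05 in 9 of 15 alternative settings. Its neighbour Col4a4 had a log2 fold change of -0.023 (SE 0.076).

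Col4a5 measured 9.19, 9.16 and 9.16 in WT and 9.26, 9.24 and 9.25 in TG, without overlap, a log2 fold change of 0.079 (SE 0.046). Its neighbour Col4a6 had one of -0.035 (SE 0.061). Among all collagens the groups did not overlap for 3 genes that were higher in TG, which were Col4a2, Col4a5 and Col6a3 (6.82%, against 12.2% of all genes), and for 10 that were lower (22.7%, against 13.6%). The median log2 fold change of the type IV genes was 0.015, and 0.066 with centred arrays, where 5 of the 6 means were higher.

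**Figure D2:**
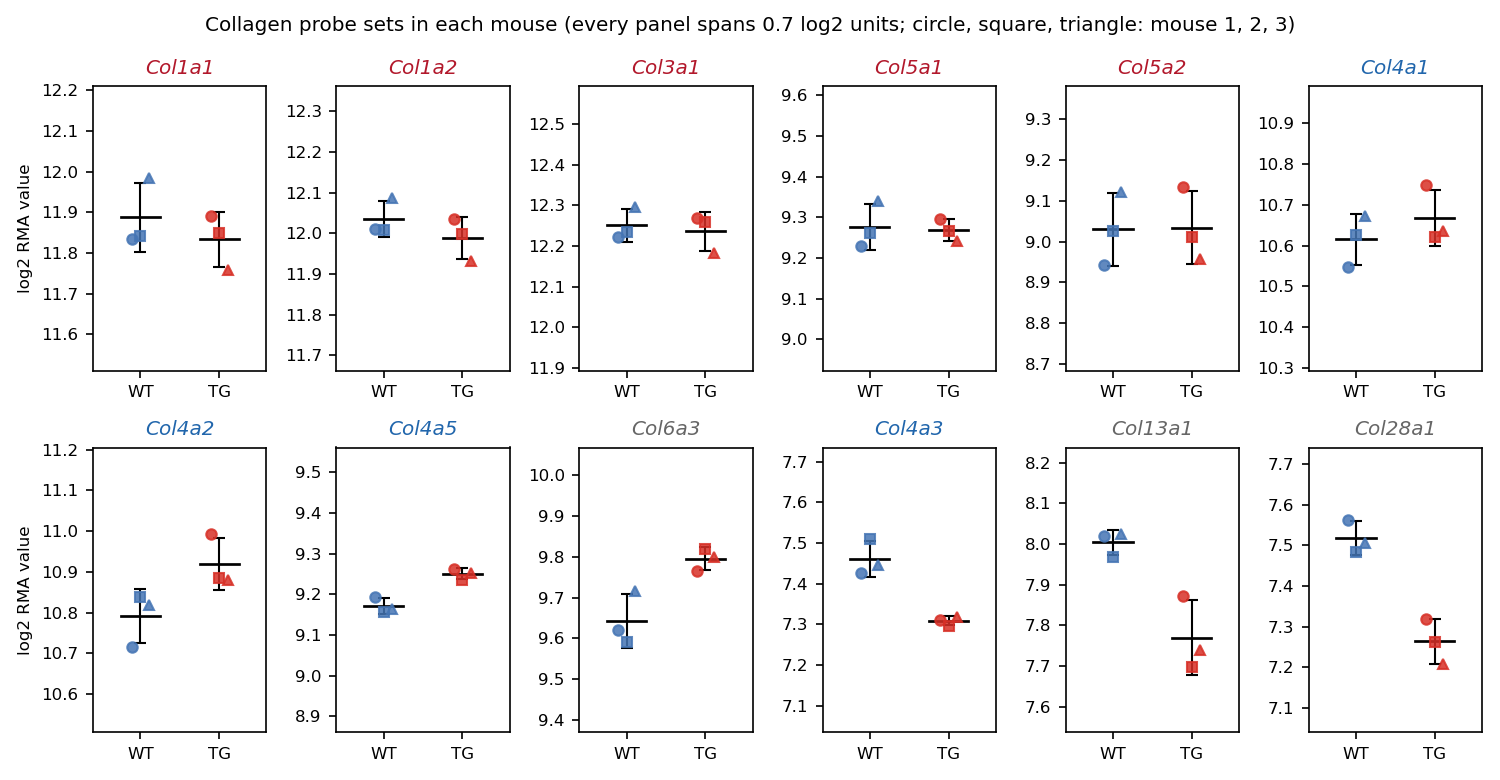
Log2 RMA value of 12 collagen genes in each mouse, with the mean and SD of each group; every panel covers the same span, so that distances compare, and title colours mark fibrillar (red), basement membrane (blue) and other (grey) genes. The groups interleave for Col1a1, Col1a2, Col3a1, Col5a1, Col5a2 and Col4a1 and are apart for the other 6, by the most for Col28a1.

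The 27 other collagens, the largest class, held 6 of the 7 genes at an unadjusted p under 0.05. That was 22.2% of this class, against 15.4% of all genes. Type VI collagen forms beaded filaments that link cells, heart muscle cells included, to the fibrils around them. Col6a3, its large alpha3 chain, measured 9.62, 9.59 and 9.72 in WT and 9.77, 9.82 and 9.80 in TG. All TG values were above all WT values. The log2 fold change was 0.15 (SE 0.056), the largest positive value of all collagens, with an interval of 1.01- to 1.22-fold and an adjusted p of 0.292 by limma. This gene kept an unadjusted p under 0.05 in 8 of 15 alternative settings, and in 2 of the 6 fits that left out a mouse.

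The chains that assemble with Col6a3 had values near 0. Col6a1 measured 10.33, 10.33 and 10.43 in WT and 10.44, 10.32 and 10.28 in TG, a log2 fold change of -0.018 (SE 0.065). Its neighbour Col6a2 had one of 0.0080 (SE 0.059). The groups of both overlapped.

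Col6a4, Col6a5 and Col6a6 encode chains that can stand in for the alpha3 chain and lie side by side in the genome. Col6a5 measured 7.37, 7.36 and 7.14 in WT and 7.12, 7.09 and 6.87 in TG. The groups did not overlap, but the lowest WT mouse and the highest TG mouse were close. Its log2 fold change of -0.26 (SE 0.097, adjusted p = 0.294 by limma) was the lowest of all collagens, with an interval of 0.708- to 0.980-fold. A second probe set of Col6a5 with a lower signal gave 0.053 (SE 0.11), the opposite sign, and averaging the probe sets gave -0.11. Without the WT replicate 1 the value was -0.22 and without the TG replicate 3 it was -0.19, and in these 3 settings Col28a1 was lower. Col6a5 kept an unadjusted p under 0.05 in 9 of 15 alternative settings, and in 3 of the 6 fits without a mouse. Col6a4 had -0.023 (SE 0.071) and Col6a6 -0.059 (SE 0.090).

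Col28a1, a late described collagen with domains like those of type VI and known from nerve, had the smallest p of all collagens. It measured 7.56, 7.48 and 7.50 in WT and 7.32, 7.26 and 7.21 in TG, and every TG mouse lay below every WT mouse. The log2 fold change was -0.25 (SE 0.055), an interval of 0.765- to 0.921-fold, with an adjusted p of 0.224 by limma. Col26a1, described with it here as the remaining types, measured 8.35, 8.26 and 8.36 in WT and 8.27, 8.23 and 8.31 in TG, with overlapping groups and a log2 fold change of -0.055 (SE 0.054).

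The 4 transmembrane collagens, which stay anchored in the cell surface, all had lower means in TG, with a median of -0.14. Col13a1, found at cell junctions and the nerve-muscle synapse, measured 8.02, 7.97 and 8.02 in WT and 7.87, 7.70 and 7.74 in TG, without overlap. Its log2 fold change was -0.23 (SE 0.063), an interval of 0.765- to 0.946-fold, with an adjusted p of 0.239 by limma. Col17a1, part of the skin's hemidesmosomes, had -0.14 (SE 0.071), Col23a1 -0.13 (SE 0.11) and Col25a1, which is expressed by neurons, -0.12 (SE 0.062). In the mean over these 4 genes the TG mice ranged from 7.36 to 7.37 and the WT mice from 7.48 to 7.56. Centring the arrays brought the Col13a1 value to -0.18.

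The fibril-associated collagens sit on the surface of fibrils. Type IX, of cartilage fibrils, gave the lowest values among them. Col9a3 measured 8.02, 7.90 and 7.89 in WT and 7.74, 7.67 and 7.75 in TG, with no overlap, and its log2 fold change was -0.22 (SE 0.060, adjusted p = 0.246 by limma). Col9a1 measured 7.25, 7.26 and 7.35 in WT and 7.23, 7.01 and 7.01 in TG. One TG mouse was close to the WT mice and the other two lay lower, without overlap of the groups, and the log2 fold change was -0.20 (SE 0.078, adjusted p = 0.304 by limma). Col9a1 kept an unadjusted p under 0.05 in 6 of 15 alternative settings and in 1 of the 6 fits without a mouse, whereas Col28a1, Col13a1 and Col9a3 kept it in all 15. Its neighbour Col19a1 had 0.0094 (SE 0.12) and the third type IX chain, Col9a2, -0.080 (SE 0.071).

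Of 6 cartilage markers 0 were called. Sox9, the cartilage master regulator, and Comp, a cartilage matrix protein, were lower at an unadjusted p under 0.05. In either direction that was 33.3% of this small list, against 15.4% of all genes. The markers Matn3 and Chad had higher means in TG, at 0.13 (SE 0.10) and 0.0068 (SE 0.18). The mean log2 value over the 6 markers was 6.47 to 6.60 in WT and 6.32 to 6.52 in TG, with overlapping groups. The part of cartilage in the type IX values was not tested. Col14a1, which binds fibrils in soft tissue, measured 10.02, 10.02 and 10.09 in WT and 10.11, 10.06 and 10.07 in TG, a log2 fold change of 0.033 (SE 0.050) with overlapping groups. Col12a1 had -0.095 (SE 0.069) and Col16a1 -0.078 (SE 0.054). Col20a1 and Col22a1 had -0.028 (SE 0.050) and -0.027 (SE 0.049).

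The multiplexins are basement membrane collagens that carry sugar chains and release fragments such as endostatin. Col15a1, found around heart muscle cells and capillaries, measured 10.43, 10.38 and 10.51 in WT and 10.51, 10.46 and 10.51 in TG, a log2 fold change of 0.056 (SE 0.057) with overlapping groups. Col18a1, the source of endostatin, measured 8.24, 8.30 and 8.22 in WT and 8.22, 8.03 and 8.10 in TG, where all TG values were below all WT values by a small margin. Its log2 fold change was -0.14 (SE 0.065), with an adjusted p of 0.366 by limma. The sign of Col15a1 turned with the scaling, to -0.019 with a second quantile normalization and -0.0085 with cyclic loess. Counting both multiplexins with the type IV genes left that class's median at 0.015. It could not move, since Col18a1 falls below the middle values of the class and Col15a1 above them.

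The last genes are the network-forming and anchoring collagens. Col8a1, of vessel walls, measured 8.66, 8.85 and 8.73 in WT and 8.75, 8.61 and 8.76 in TG, a log2 fold change of -0.040 (SE 0.074). Its partner Col8a2 had -0.15 (SE 0.11), and Col10a1, of growth plate cartilage, 0.014 (SE 0.096). Col7a1, which makes the anchoring fibrils of skin, measured 7.79, 7.74 and 7.65 in WT and 7.67, 7.51 and 7.54 in TG, a log2 fold change of -0.16 (SE 0.070), with an adjusted p of 0.350 by limma. The groups of these 4 genes overlapped.

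The classes were set beside each other within each mouse. Averaged over its 11 genes, the fibrillar class had a mean log2 value of 9.11, 9.10 and 9.15 in WT and 9.12, 9.06 and 9.02 in TG, so that the groups overlapped. The type IV class had 8.77, 8.77 and 8.83 in WT and 8.82, 8.78 and 8.79 in TG, again with overlap. The other class had 8.003, 7.997 and 7.977 in WT and 7.960, 7.887 and 7.882 in TG, where every TG mouse was lower, by means that differ by -0.083. That separation was lost when the arrays were centred. With the median of each array subtracted, the other class had 1.049, 1.048 and 1.042 in WT and 1.053, 0.996 and 0.995 in TG, so that the groups overlapped and a TG mouse was highest. The median log2 fold change of this class was -0.078 as deposited and -0.027 with centred arrays. It was -0.074 with a second quantile normalization and with cyclic loess, each with 21 of 27 means lower, as deposited. The class means in each mouse under those settings are not given here.

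The difference between classes within a mouse does not move when a constant is added to an array. The type IV mean minus the fibrillar mean was -0.341, -0.333 and -0.320 in the WT mice and -0.298, -0.276 and -0.230 in the TG mice. The basement membrane class was therefore higher relative to the fibrillar class in all TG mice than in any WT mouse. Among all single genes the groups did not overlap for 12.2% that were higher in TG and for 13.6% that were lower. The mean of the other class minus the fibrillar mean was -1.108, -1.108 and -1.175 in WT and -1.161, -1.170 and -1.142 in TG, with overlapping groups. For the type IV difference, the step between the nearest WT and TG mice was smaller than the range among the TG mice. This is a description with no test, since the classes are small and their genes are made in part by the same cells.

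Single mice weighed on these classes. The WT replicate 3 had the highest value for 13 of the 44 collagens, and 6 of the 11 fibrillar ones, while the TG replicates 2 and 3 had the lowest value for 15 and 14 of the 44. Without the WT replicate 3 the type IV median was 0.052, and without the TG replicate 1 the median of the other collagens was -0.11. Over the 6 fits that left out a mouse, the fibrillar median ranged from -0.066 to -0.019.

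**Figure D3:**
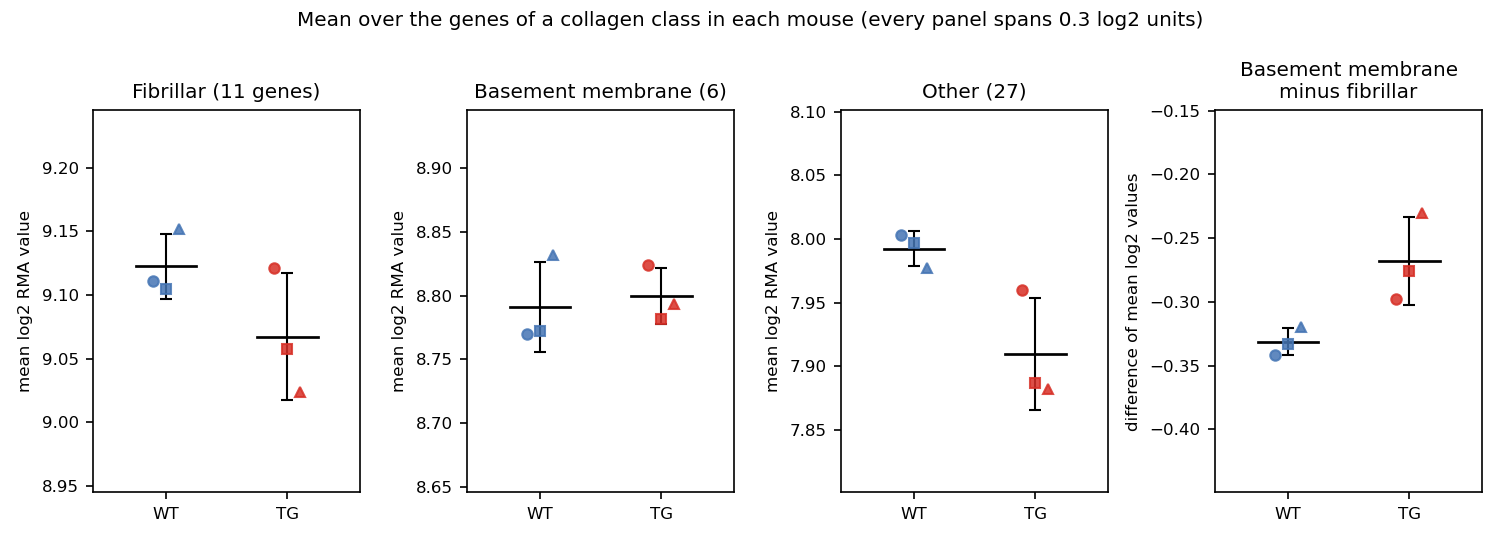
Mean log2 RMA value over the genes of each collagen class in each mouse, and in the last panel the basement membrane mean minus the fibrillar mean, with the mean and SD of each group; circle, square and triangle are mice 1, 2 and 3. The groups overlap for the fibrillar and basement membrane classes and are apart for the other class, as deposited, and for the difference, which is -0.341 to -0.320 in WT and -0.298 to -0.230 in TG.

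Array signal moved with the direction of these values. All 6 collagens that were lower at an unadjusted p under 0.05 had a mean log2 value between 7 and 8, a little above the array medians. In that range 18 of 18 collagens had a lower mean in TG, with a median of -0.14, and 63.0% of 3487 genes did, with a median of -0.041. There 6 of the 18 collagens and 11.04% of all genes were lower at an unadjusted p under 0.05, a difference that was not tested. Above a mean of 8 the collagens had a median of -0.017, with 12 of 20 lower, against a median of 0.039 in 7358 genes, of which 34.6% were lower. Between 8 and 9, 7 of 7 collagens were lower, with a median of -0.059, against 43.1% of genes, with a median of 0.018. Above 9, 5 of 13 were lower, with a median of 0.0080, against 27.4% of genes, with a median of 0.053.

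Below a mean of 7 there were 6 collagens, 4 of them lower, with a median of -0.029 against -0.060 in 9093 genes. The collagen median thus lay below that of all genes in each range above 7 and not in the lowest, while the direction of all genes turned from lower to higher as signal rose. The medians of the arrays were 6.93 to 6.95 in WT and 6.89 to 6.91 in TG. The part of array signal in the collagen values was not tested by a model of these genes. A cyclic loess normalization, which evens out differences between arrays that vary with signal, left 3 lower and 0 higher collagens at an unadjusted p under 0.05, and all 3 were among the 7 named above. With it the fibrillar median was -0.073, the type IV median 0.0087 and the median of the other collagens -0.074.

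**Figure D4:**
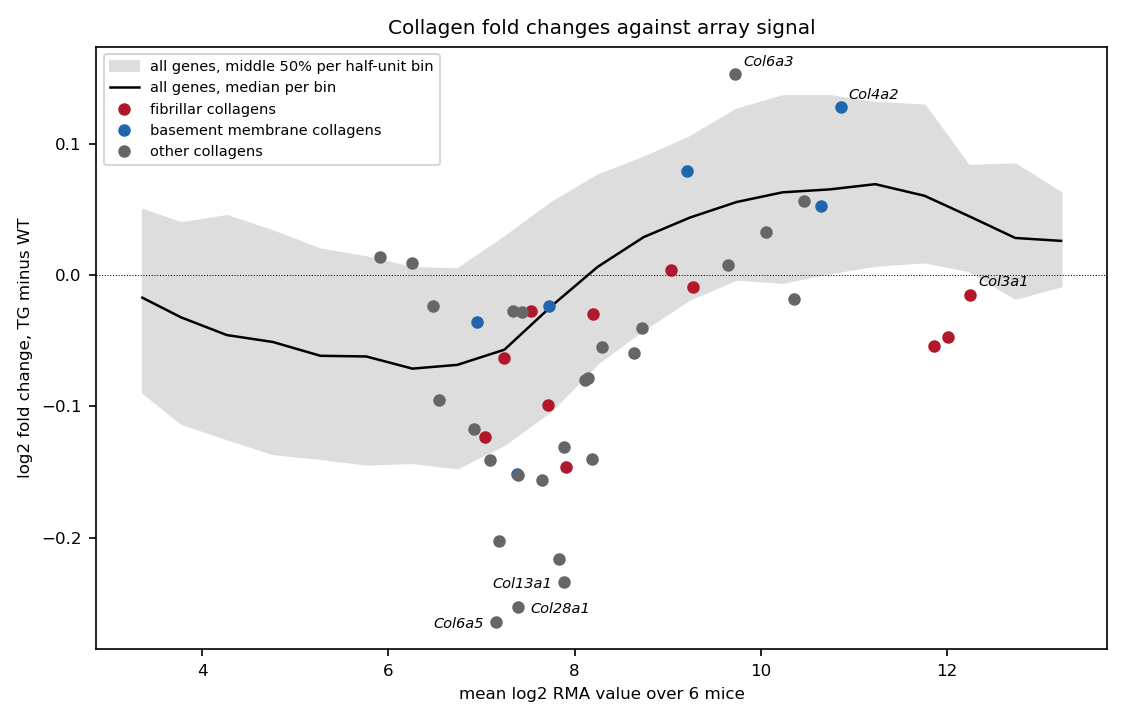
Log2 fold change (TG minus WT) against the mean log2 RMA value over the 6 mice, for 44 collagens as points, with the median (line) and middle 50% (grey band) of all genes in bins of signal. The line lies below 0 at low signal and above 0 at high signal, and the lowest collagens lie between 7 and 8 on the signal axis.

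The genes that process collagen were counted in the same fit. Of 29 measured genes for collagen synthesis and cross-linking, 0 were called. At an unadjusted p under 0.05, 3 were higher and 2 lower, and the median log2 fold change was 0.013. These 5 of 29 (17.2%) are near the 15.4% of all genes, and are given as values. The 3 higher genes were P4ha1, Plod2 and P3h2. P4ha1, a catalytic subunit of the prolyl hydroxylase that stabilises the triple helix, measured 9.65, 9.87 and 9.95 in WT and 10.03, 10.11 and 10.39 in TG, a log2 fold change of 0.35 (SE 0.12). Plod2, which hydroxylates lysines for cross-links, measured 9.61, 9.57 and 9.66 in WT and 9.72, 9.87 and 9.92 in TG, a log2 fold change of 0.22 (SE 0.069). P3h2, a prolyl 3-hydroxylase that acts on type IV collagen, measured 8.11, 7.98 and 8.10 in WT and 8.29, 8.25 and 8.26 in TG, a log2 fold change of 0.20 (SE 0.057). The adjusted p of these 3 genes by limma was 0.251 to 0.282.

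The 2 lower genes were Adamts3 and Tll2. Adamts3, which cuts the amino-terminal end off procollagen, had a log2 fold change of -0.18 (SE 0.058), and Tll2, a tolloid protease of the Bmp1 family, one of -0.18 (SE 0.068). Adamts3 had 16 probe sets, of which 15 were lower and 2 passed B above 0, with values from -0.50 to 0.076. When the probe sets of a gene were averaged before the fit, Adamts3 was called, with -0.29 (SE 0.050) and an adjusted p of 0.0836 by limma. P4hb, the partner subunit of the prolyl hydroxylase, had 0.12 (SE 0.065), Plod1 0.039 (SE 0.071) and Ppib, a prolyl isomerase of the collagen chaperone complex, 0.11 (SE 0.051).

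Of 21 measured genes that bind collagen, act as its receptors or break it down, 0 were called. At an unadjusted p under 0.05, 0 were higher and 3 lower (14.3%, against 15.4% of all genes), and the median was -0.0070. Mmp13, a collagenase, had a log2 fold change of -0.27 (SE 0.080), Fmod, a proteoglycan that binds fibrils, -0.27 (SE 0.097) and Itga10, a collagen receptor of cartilage cells, -0.21 (SE 0.063). The mean log2 value of Mmp13 was 5.42, below the array medians, where all genes leaned lower in TG. Dcn, the fibril-binding proteoglycan decorin, had 0.12 (SE 0.055), Sparc, a collagen-binding protein, 0.037 (SE 0.052) and Itgb1, the beta chain of the collagen-binding integrins, 0.063 (SE 0.045). Of 15 measured basement membrane partners, 0 were called, with a median of 0.017, and 3 (20%, against 15.4% of all genes) had an unadjusted p under 0.05. The laminin chain Lamb1 was higher at an unadjusted p under 0.05, at 0.14 (SE 0.048), and the laminin chains Lama1 and Lama5 were lower, at -0.16 (SE 0.050) and -0.16 (SE 0.054). Lama1 too had a mean log2 value below the array medians, at 6.09. The laminin chain Lamb2 had -0.049 (SE 0.049) and Hspg2, the proteoglycan perlecan, 0.019 (SE 0.056).

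**Figure D5:**
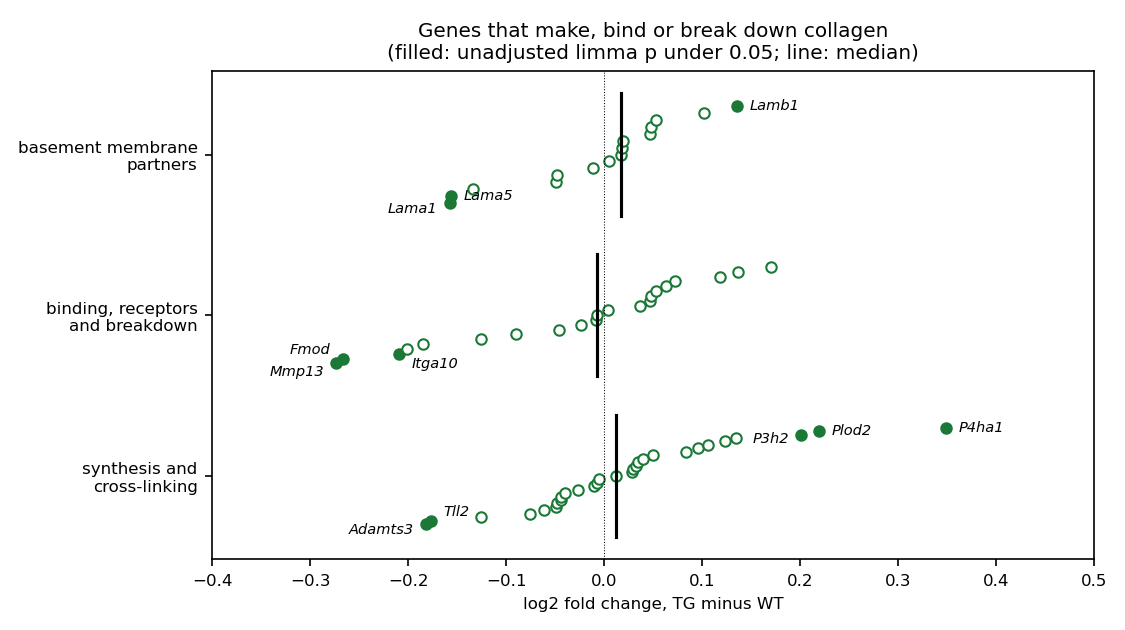
Log2 fold change (TG minus WT) of each measured gene of 3 lists that make, bind or break down collagen or build the basement membrane, sorted within a list, with the list's median as a vertical line; filled points have an unadjusted p under 0.05. The medians lie between -0.0070 and 0.017, and the value farthest from 0 is that of P4ha1, at 0.35.

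The cells that make collagen were followed through marker lists. Of 10 fibroblast markers 0 were called and 1, Gsn, was higher at an unadjusted p under 0.05 (10%). Shares in this paragraph are in either direction, against 15.4% of all genes. Their mean log2 value was 10.500 to 10.587 in WT and 10.593 to 10.614 in TG. Of 8 endothelial markers 0 were called and 2, Eng and Flt1, were higher (25%), with a mean of 10.50 to 10.52 in WT and 10.57 to 10.59 in TG. The means of these lists differed by 0.073 and 0.064, close to the median of all genes at such signal, which was 0.063 for genes with a mean log2 value around 10.2 and 0.066 around 10.7. Of 9 smooth muscle and pericyte markers 0 were called, Abcc9 was higher, and Myh11, Acta2 and Cnn1 were lower (44.4%). The mean over this list was 9.878 to 10.004 in WT and 9.792 to 9.872 in TG. Its group means differed by -0.13, against a median of 0.056 for genes with a mean log2 value around 9.7. The 8 heart muscle markers gave 13.59 to 13.62 in WT and 13.61 to 13.62 in TG. The 8 leukocyte markers gave 7.24 to 7.28 in WT and 7.22 to 7.27 in TG, with Lyz2 higher and Cd3e lower (25%). Of 5 epicardial markers Krt19 was lower (20%). Cnn1, Cd3e and Krt19 had mean log2 values of 6.63, 6.73 and 6.77, below the array medians. Of the 2 red blood cell markers measured, 0 reached an unadjusted p under 0.05. The part of these cell types in the collagen values was not tested.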

How the data were processed

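Ventricular RNA of 6 mice was read by the authors on Affymetrix Mouse Gene ST arrays. The deposited values are log2 signals of probe sets, made with RMA per the submitters' processing notes, a method that corrects background, evens out arrays by quantiles and summarises probes. The sources used here name neither its version nor a filter. All 35556 probe sets were fitted in R 4.3.3 by limma 3.58.1 (functions lmFit and eBayes, no trend, assumed changed share 0.01), with Benjamini-Hochberg adjustment over all of them, and the script was tested on simulated data. Arrays give no counts, so their number limits the precision. The mice are separate animals.

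Names came from the platform annotation, updated through RefSeq: 21789 probe sets had 1 symbol, 1621 several and 12146 are unnamed here. Cert1 (formerly Col4a3bp), a ceramide transfer protein, was not a member. Fkbp10, Adamts2, Loxl2, Gp6, Hbb-bt and Hba-a1 were not analysed here. The members and lists were chosen with earlier results of these data known. Values in every mouse are given for Col1a1, Col1a2, Col3a1, Col5a1, Col5a2, Col4a1, Col4a2, members at B above 0 or an unadjusted p under 0.05 and the brightest member of each type of other collagens. Members with the highest and lowest value of a class are named, as are list genes at that p and the 3 brightest of each list. A second probe set is given where its sign differs and its value differs by over 0.2. Genes named beyond this rule account for the other members and the marker lists, and were named after their values were seen. Alternatives were leaving out dim probe sets, dim members or unnamed probe sets, centring, a second quantile normalization, cyclic loess, an intensity trend, robust moderation, the replicate number as a block, leaving out each mouse, averaging the probe sets of each gene and another class for the multiplexins. Cyclic loess was added after seeing the data.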

Additional observations from a re-analysis of the deposited data

How the results depend on the processing

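The count of collagens called at B above 0 was 0 in every alternative run. At an unadjusted p under 0.05, 1 collagen was higher and 6 were lower as reported. The higher count was 3 with centred arrays, 2 with an intensity trend, and 0 with a second quantile normalization, with cyclic loess and with the replicate number as a block. The lower count was 3 with centred arrays, 3 with cyclic loess and 4 with the replicate block. Without 1 mouse, the higher count ranged from 0 to 1 (0 without WT replicates 1 or 2 or TG replicates 2 or 3) and the lower count from 3 (without WT replicate 2) to 9 (without TG replicate 1). With centred arrays the medians were 0.0044 for fibrillar, 0.066 for basement membrane and -0.027 for other collagens. Without 1 mouse they ranged from -0.066 to -0.019, from -0.0049 to 0.052 and from -0.11 to -0.073. The synthesis list had 1 call, Adamts3, with the mean over probe sets. The cause of these changes was not tested. The labels number the mice 1 to 3 in each group. Mice of the same number did not deviate together (r = 0.024, -0.00044 and 0.057 across probe sets). The numbers were therefore not taken as pairs. With the block 18 of all genes were called at B above 0, against 68 without it, and 0 collagens in either fit. There was no collagen call to change, so that count cannot bear on the pairing. At an unadjusted p under 0.05 the block dropped Col4a3, Col6a3 and Col9a1. The lists had 0 called genes in the other alternatives run. Col6a5 moved from -0.26 to -0.11 with averaged probe sets. Of the intervals, 5 of 6 type IV genes lay within 1.25-fold with centred arrays, and 10 fibrillar and 5 type IV genes with the block. With 3 mice a group, true differences as large as the interval bounds given remain possible. The bounds are those of the array signal.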
